A study of Mus musculus with 7 samples.

Results

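The 10 genes described here encode transcription factors of the type 2 innate lymphoid cell (ILC2) lineage: Gata3, Rora, Id2, Gfi1, Ets1, Bcl11b, Tcf7, Nfil3, Tox and Lef1. They were chosen by symbol, and each matched 1 of the 55335 genes of the deposited count and FPKM tables. All 10 were among the 17015 genes tested. RNA came from 3 libraries of ILC2s from naive mouse hearts and 4 libraries of ILC2s from Balb/C hearts transplanted into C57BL/6 (B6) recipients, a combination that rejects the graft acutely, taken on day 7. The labels gave no genotype, age or sex for either group and no strain for the naive hearts, and the time field read 7 days for both. The cells were sorted as CD45+ Lineage-ST2+ cells, each library pooled cells of 4 to 7 hearts, and donor and recipient ILC2s of a graft were not separated by the sort.

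ILC2s arise from lymphoid progenitors through a series of factors that restrict other fates. Nfil3, Tox, Tcf7, Id2 and Ets1 act in early ILC progenitors, Id2 by blocking the E proteins that drive B and T cell fates, and Gata3, Rora, Gfi1 and Bcl11b establish and hold the ILC2 programme. Tcf7 encodes TCF-1 and Lef1 its close relative, both HMG-box proteins that bind the same DNA motif and can act with beta-catenin. Gata3 is kept at a high level in mature ILC2s, where it drives Il1rl1 (the ST2 receptor) and the type 2 cytokines.

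Of the 10 factors, Tcf7 showed the widest difference between the groups, and its partner Lef1 showed none beyond the spread of the libraries. Tcf7 had 0.943, 0.857 and 4.68 CPM (counts scaled to the library total) in naive replicates 1 to 3, and 44.4, 21.5, 43.9 and 48.2 CPM in allograft replicates 1 to 4. The lowest allograft library was 4.60 times the highest naive one. Lef1 had 23.1, 4.81 and 36.0 CPM in the naive and 20.5, 28.0, 37.0 and 27.8 CPM in the allograft libraries, so its groups overlapped. None of the 10 passed an adjusted p of 0.05 in the main test (edgeR quasi-likelihood test, Benjamini-Hochberg adjustment over all genes), in which 0.0353% of all genes passed.

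Windows at annotated starts of these paired genes are shown because one of them separated the groups and the other did not. The windows, from RefSeq on GRCm38.p6, run from 250 bases before to 50 after an annotated start, and 8 of the 10 factors matched, with 13 windows (Ets1 and Tox did not). The motifs searched on both strands were the TCF and LEF core CTTTGA and the GATA site, taken as GATA with A or T before it and A or G after it. The matches do not overlap one another. Capitals mark the matches. Tcf7 has an outer start (chr11:52282965-52283264, minus strand) and an inner start (chr11:52282546-52282845, minus strand). Lef1 is shown at its first start (chr3:131110047-131110346, plus strand) and at a start inside the gene (chr3:131156044-131156343, plus strand). The latter was the only Lef1 window with a match. The Lef1 windows at chr3:131110073-131110372 and chr3:131112541-131112840 held none and are not shown.
Tcf7 outer start: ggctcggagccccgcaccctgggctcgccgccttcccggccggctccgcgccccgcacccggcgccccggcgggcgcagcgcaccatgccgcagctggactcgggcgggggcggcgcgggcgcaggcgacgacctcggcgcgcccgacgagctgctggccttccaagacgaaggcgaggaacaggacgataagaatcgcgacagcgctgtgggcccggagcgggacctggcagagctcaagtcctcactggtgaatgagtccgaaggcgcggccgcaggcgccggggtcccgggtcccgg
Tcf7 inner start: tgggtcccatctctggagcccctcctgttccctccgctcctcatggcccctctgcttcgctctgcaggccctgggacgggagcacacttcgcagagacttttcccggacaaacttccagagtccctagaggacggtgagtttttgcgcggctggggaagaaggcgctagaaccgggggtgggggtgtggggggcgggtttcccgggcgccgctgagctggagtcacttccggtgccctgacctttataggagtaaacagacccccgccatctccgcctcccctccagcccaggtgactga
Lef1 first start: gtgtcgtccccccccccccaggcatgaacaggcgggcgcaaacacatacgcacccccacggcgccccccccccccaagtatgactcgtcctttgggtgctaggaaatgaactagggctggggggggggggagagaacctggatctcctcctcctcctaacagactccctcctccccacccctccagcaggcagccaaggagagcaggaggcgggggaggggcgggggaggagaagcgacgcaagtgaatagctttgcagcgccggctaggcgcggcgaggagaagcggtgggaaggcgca
Lef1 start inside the gene: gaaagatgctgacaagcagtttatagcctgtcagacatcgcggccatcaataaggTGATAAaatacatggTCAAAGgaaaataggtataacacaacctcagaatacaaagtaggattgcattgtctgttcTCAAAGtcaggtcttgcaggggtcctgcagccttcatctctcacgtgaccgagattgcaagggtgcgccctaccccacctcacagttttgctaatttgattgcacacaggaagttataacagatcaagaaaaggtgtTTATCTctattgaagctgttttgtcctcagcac
Neither Tcf7 window held a match. From the bases atgccgcagctg on, the outer Tcf7 window reads as an open reading frame to its end. It is thus not purely upstream sequence, and bases further upstream were not searched, so the absence of a match does not describe the whole promoter. The Lef1 window shown inside the gene held TCF matches beginning at -180 and -120 and GATA matches at -195 and 17, counted from the start as 0. Among the 13 windows, 2 held a TCF match (Bcl11b and Lef1) and 3 a GATA match (Gata3, Rora and Lef1). In all 32851 windows of this length the shares were 16.0% and 29.8%. The counts are per gene, so that starts were not told apart.

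Total counts ran from 29107326 to 53044907 per library. Naive replicate 2 stood apart from the other 6 libraries. Ptprc, which encodes the CD45 of the sort gate, was at 239, 11.7 and 565 CPM in naive replicates 1 to 3 and at 520 ± 153 CPM (SD, n = 4) in grafts, and Il1rl1 was at 745, 6.79 and 344 CPM against 653 ± 106. Kidney nephron markers (12 genes) summed to 10890 CPM in naive replicate 2, to 89.6 and 325 in naive replicates 1 and 3 and to 84.3 to 129 in the allografts. Mitochondrial transcripts were 26.5% of its counts and 2.04% to 3.11% elsewhere. A count was found for 15820, 20254 and 13864 genes in the naive and for 19235 to 21354 in the allograft libraries.

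By CPM, all 10 factors were lowest in naive replicate 2, as were 31.3% of the genes tested. For Tcf7 this rested on 0.857 CPM against 0.943 CPM in naive replicate 1, a small gap. Relative to the mean of naive replicates 1 and 3, naive replicate 2 held 1.20% of Gfi1, 1.86% of Bcl11b, 1.95% of Tox, 3.12% of Rora, 3.65% of Ets1 and 4.29% of Gata3. Those 6 shares lay near those of Ptprc (2.91%) and Il7r (3.65%), and that of Il1rl1 was 1.25%. The other 4 were less depleted, with 13.6% for Nfil3, 14.9% for Id2, 16.3% for Lef1 and 30.5% for Tcf7. In bulk RNA, fewer ILC2s and less RNA of these genes per cell cannot be told apart, and the part of cells from outside the heart was not tested. The fold change of each factor is therefore given for 7 libraries and without naive replicate 2.

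**Figure D1:**
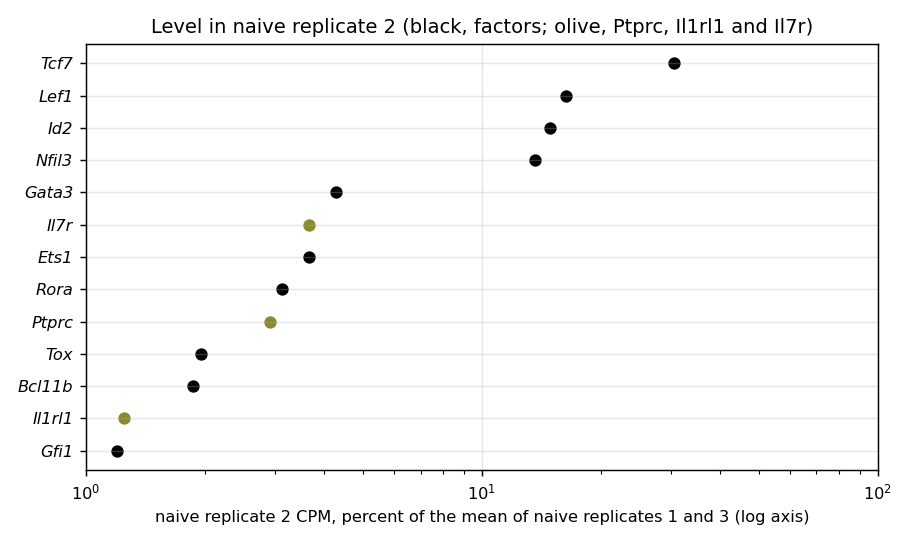
Level in naive replicate 2 of each factor (black) and of Ptprc, Il1rl1 and Il7r (olive), as a percentage of the mean CPM of naive replicates 1 and 3, on a log axis. Gfi1 is lowest at 1.20% and Tcf7 highest at 30.5%, with Tcf7, Lef1, Id2 and Nfil3 above 13%.

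Levels between genes can be compared per gene length, as FPKM. In the allografts Id2 was the most abundant factor at 1713 ± 165 FPKM (SD, n = 4), followed by Gata3 at 169 ± 15.6, Nfil3 at 121 ± 16.9, Rora at 100.1 ± 11.5 and Ets1 at 47.2 ± 0.936. The libraries of each of these 5 did not overlap with those of the next gene in the order. Below them came Gfi1 (14.9 ± 2.39), Tcf7 (11.3 ± 3.47), Bcl11b (10.8 ± 2.65), Tox (9.50 ± 0.962) and Lef1 (2.78 ± 0.675). Among these, Gfi1 and Tcf7 overlapped, as did Tcf7, Bcl11b and Tox, and Lef1 lay below all others in each allograft library. Id2 was the top factor in all 7 libraries, and by mean FPKM it exceeded 99.8% of the genes tested in both groups. Tcf7 changed its place most: its naive mean exceeded 24.4% of the genes tested and its allograft mean 78.6%.

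**Figure D2:**
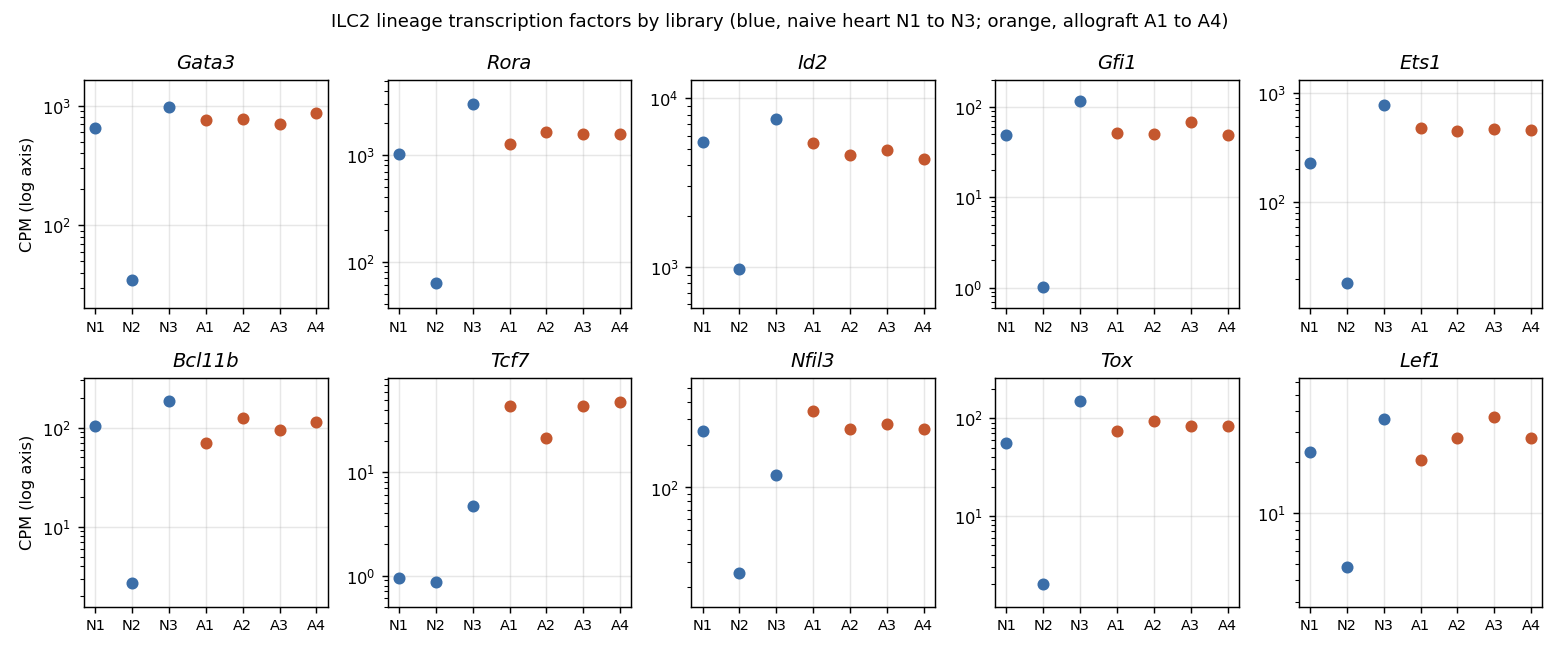
CPM of each factor on log axes in the naive (blue, N1 to N3) and allograft (orange, A1 to A4) libraries. Naive replicate 2 is the lowest point in all 10 panels, and in all but Tcf7 and Nfil3 naive replicate 3 lies above or among the allograft points.

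Gata3 (ENSMUSG00000015619; GRCm38 chr2:9857078-9890034, minus strand), the zinc-finger factor that defines ILC2s, had 654, 34.8 and 970 CPM in the naive and 756, 768, 706 and 876 CPM in the allograft libraries. The allografts lay between naive replicates 1 and 3. The log2 fold change, allograft over naive, was 0.44 (SE 0.801, adjusted p = 0.931 by edgeR), and -0.12 (SE 0.231, adjusted p = 0.841) without naive replicate 2. Its direction therefore turned with 1 library. Neighbouring transcripts share exons with it, Gm13256 on the other strand and 9230102O04Rik on the same strand, with at most 6.70 and 36.1 CPM.

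Rora (ENSMUSG00000032238; chr9:68653786-69388246, plus strand), a nuclear receptor required for ILC2 development, had 1025, 62.6 and 2993 CPM in the naive and 1266, 1638, 1562 and 1589 CPM in the allograft libraries. Naive replicate 3 was the highest of all 7. The log2 fold change was 0.10 (SE 0.914, adjusted p = 0.992 by edgeR), or -0.47 (SE 0.411, adjusted p = 0.584) without naive replicate 2. Per 100 Ptprc counts, a scale set by the CD45 transcript, Rora had 428, 534 and 529 counts in the naive and 321, 222, 310 and 360 in the allograft libraries. On that scale the groups did not overlap (exact two-sided permutation p = 0.0286, unadjusted, the smallest that 35 splits allow, in a family of 20 such tests), as was so in this direction for 11.0% of the genes tested. The fit across all genes scaled to Ptprc gave -0.71 (adjusted p = 0.549), beside a median of -3.15 over all genes, and -0.66 (adjusted p = 0.442) without naive replicate 2, beside a median of -0.34.

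Gfi1 (ENSMUSG00000029275; chr5:107716657-107726036, minus strand), a repressor that holds Gata3 and Il1rl1 expression in ILC2s, had 49.5, 1.01 and 119 CPM in the naive and 51.9, 50.9, 67.9 and 49.5 CPM in the allograft libraries. Bcl11b (ENSMUSG00000048251; chr12:107910403-108003602, minus strand), a zinc-finger factor that keeps ILC2s from type 3 features, had 103, 2.68 and 186 CPM against 69.8, 126, 93.7 and 115. In both genes the allografts lay around naive replicate 1 and below naive replicate 3. The log2 fold changes were -0.08 (SE 1.03) for Gfi1 and 0.02 (SE 0.951) for Bcl11b, and without naive replicate 2 they were -0.67 (SE 0.392, adjusted p = 0.374 by edgeR) and -0.57 (SE 0.350, adjusted p = 0.399). Gfi1 shares exons with A430072P03Rik on the other strand, which had at most 11.2 CPM.

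Id2 (ENSMUSG00000020644; chr12:25093799-25097140, minus strand), the inhibitor of E proteins needed by all ILCs, had 5509, 977 and 7565 CPM in the naive and 5445, 4591, 4952 and 4338 CPM in the allograft libraries. All 4 allografts lay below naive replicates 1 and 3 and above naive replicate 2. The log2 fold change was -0.03 (SE 0.620, adjusted p = 0.996 by edgeR). Without naive replicate 2 it was -0.49 (SE 0.213, adjusted p = 0.258), and the groups then did not overlap in CPM, as in this direction for 7.15% of the 18037 genes tested there. The gap was narrow, at 5445 CPM in allograft replicate 1 against 5509 CPM in naive replicate 1. Per 100 Gata3 counts, Id2 had 842, 2800 and 780 counts in the naive and 721, 598, 702 and 495 in the allograft libraries. On that scale it was lower in 4 of 4 allografts, as were 6.44% of the genes tested.

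Ets1 (ENSMUSG00000032035; chr9:32636221-32757820, plus strand), an ETS-domain factor needed for ILC2 fitness, had 230, 18.4 and 779 CPM in the naive and 476, 451, 464 and 460 CPM in the allograft libraries. The allografts differed by a coefficient of variation of 2.25%, the smallest of the 10 factors, and the naive libraries by 115%. Tox (ENSMUSG00000041272; chr4:6686353-6991557, minus strand), an HMG-box factor of early ILC progenitors, had 55.8, 2.02 and 152 CPM against 74.2, 94.3, 83.2 and 82.5. In both genes every allograft fell between naive replicates 1 and 3. The log2 fold changes were 0.38 (SE 0.886, adjusted p = 0.948 by edgeR) for Ets1 and 0.21 (SE 0.962, adjusted p = 0.979) for Tox, and -0.19 and -0.38 without naive replicate 2.

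Nfil3 (ENSMUSG00000056749; chr13:52967209-52981073, minus strand), a basic leucine zipper factor required for ILC progenitors, had 248, 25.1 and 122 CPM in the naive and 344, 257, 277 and 258 CPM in the allograft libraries. The groups did not overlap, but the lowest allograft was only 1.04 times naive replicate 1. Such a separation, allograft higher, was found for 12.5% of all genes, and for 2 of the 10 factors, Nfil3 and Tcf7. Without naive replicate 2 these 2 factors separated in the same way, as did 21.0% of all genes. The log2 fold change was 1.06 (SE 0.583, adjusted p = 0.642 by edgeR), and 0.58 (SE 0.323, adjusted p = 0.343) without naive replicate 2. Its exact two-sided permutation p was also 0.0286 on log2 CPM, unadjusted. Per 100 Ptprc counts the groups overlapped, with 104, 214 and 21.5 counts in the naive and 87.3, 34.8, 55.0 and 58.4 in the allograft libraries.

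Tcf7 (ENSMUSG00000000782; chr11:52252371-52283014, minus strand) rested on 50, 39 and 204 counts in the naive and 1955, 698, 1795 and 1402 counts in the allograft libraries, all above the 3 counts that a reading of 0 would still allow. The log2 fold change was 4.06 (SE 0.800, unadjusted p = 0.00116, adjusted p = 0.144 by edgeR), a 16.7-fold difference, with 4 of 4 allografts higher. It was the 1 factor of 10 with an unadjusted p under 0.05, a share near the 10.3% of all genes. The exact two-sided permutation p on log2 CPM was 0.0286, unadjusted. Without naive replicate 2, where 3.1% of all genes and none of the 10 factors passed, the log2 fold change was 3.75 (SE 0.847, adjusted p = 0.0717), and without naive replicate 1 or 3 it was 3.68 (adjusted p = 0.0972) or 5.17 (adjusted p = 0.0666). The call depended on the tool: DESeq2 gave 3.89 (adjusted p = 4.24e-06), where 5.95% of all genes passed, and limma on log2(FPKM + 0.1) gave 4.24 (adjusted p = 0.0276), where 1.18% passed. With voom and sample quality weights the adjusted p was 0.808 (unadjusted p = 0.0505), with robust quasi-likelihood 0.174 and with DESeq2 size factors in edgeR 0.142. No exon of another annotated gene overlaps those of Tcf7.

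On scales set by a single transcript, Gata3 or Ptprc, naive replicate 2 came closer to the allografts. Per 100 Gata3 counts Tcf7 had 0.144, 2.46 and 0.482 counts in the naive and 5.88, 2.80, 6.22 and 5.50 in the allograft libraries, still without overlap, as in this direction for 3.80% of all genes. Per 100 Ptprc counts it had 0.394, 7.32 and 0.828 counts in the naive and 11.3, 2.91, 8.72 and 10.9 in the allografts, so that naive replicate 2 exceeded allograft replicate 2. Scaled to Ptprc, the fit gave 1.59 on the log2 scale (SE 1.52, adjusted p = 0.377 by edgeR), against 4.06 with TMM. The median over all genes on the Ptprc scale was -3.15, against -0.01 with TMM. Leaving naive replicate 2 out on the Ptprc scale gave 3.79 for Tcf7 (adjusted p = 0.0881 by edgeR), beside a median of -0.34 over all genes.

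Lef1 (ENSMUSG00000027985; chr3:131110471-131224356, plus strand) had a fold change of 0.33 on the log2 scale (SE 0.590, adjusted p = 0.930 by edgeR), and -0.11 (SE 0.390, adjusted p = 0.918) without naive replicate 2. Scaled to Ptprc counts it was -1.75 (adjusted p = 0.244), beside the median of -3.15 over all genes on that scale. The antisense gene Gm43352 shares exons with Lef1 and had 23.9 CPM in naive replicate 3 and at most 3.29 CPM elsewhere. Without a stated use of strand, reads of this pair cannot be told apart, and Lef1 in naive replicate 3 is uncertain to that extent. Per gene length, the ratio of Tcf7 to Lef1 FPKM was 0.118, 0.519 and 0.379 in the naive and 6.32, 2.25, 3.46 and 5.06 in the allograft libraries. Lef1 thus exceeded Tcf7 in each naive library and Tcf7 exceeded Lef1 in each allograft, a ratio chosen after its values were seen and given without a test.

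**Figure D3:**
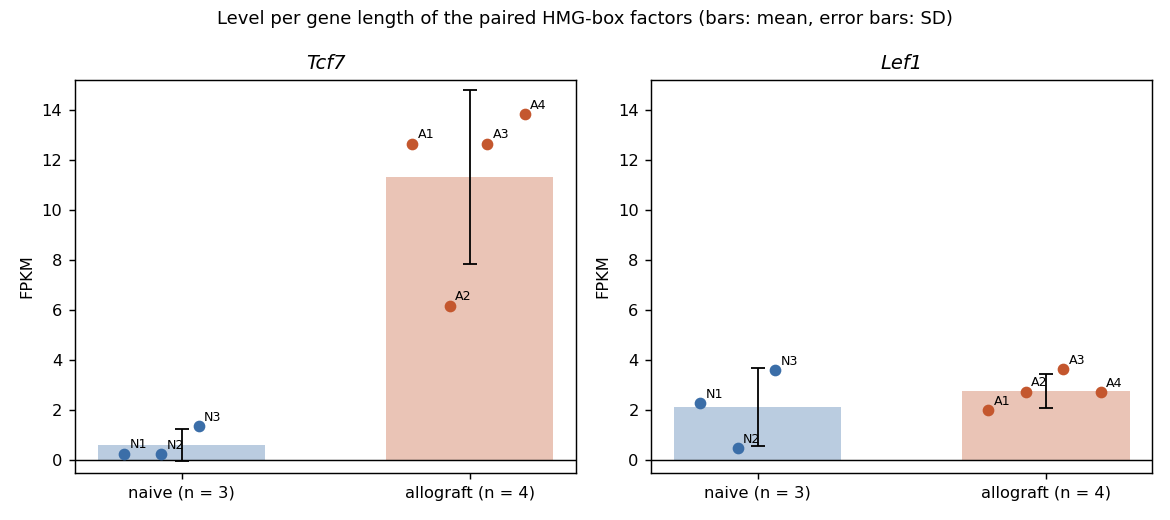
FPKM of Tcf7 and Lef1 by group, with points for libraries (N1 to N3 naive, A1 to A4 allograft), bars for means and error bars for the SD. Tcf7 means are 0.633 and 11.3 FPKM with no overlap, and Lef1 means are 2.14 and 2.78 FPKM with overlap.

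Over the 10 factors, 8 fold changes were positive with 7 libraries (median 0.27 on the log2 scale, against -0.01 over all genes), and 2, Tcf7 and Nfil3, without naive replicate 2 (median -0.28, against 0.23 over all genes). Only 2 of the 10 kept the sign of their fold change in every fit that left out 1 library: Tcf7 and Nfil3. Scaled to Ptprc, the median of the factors was -0.68 and that of all genes -3.15.

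**Figure D4:**
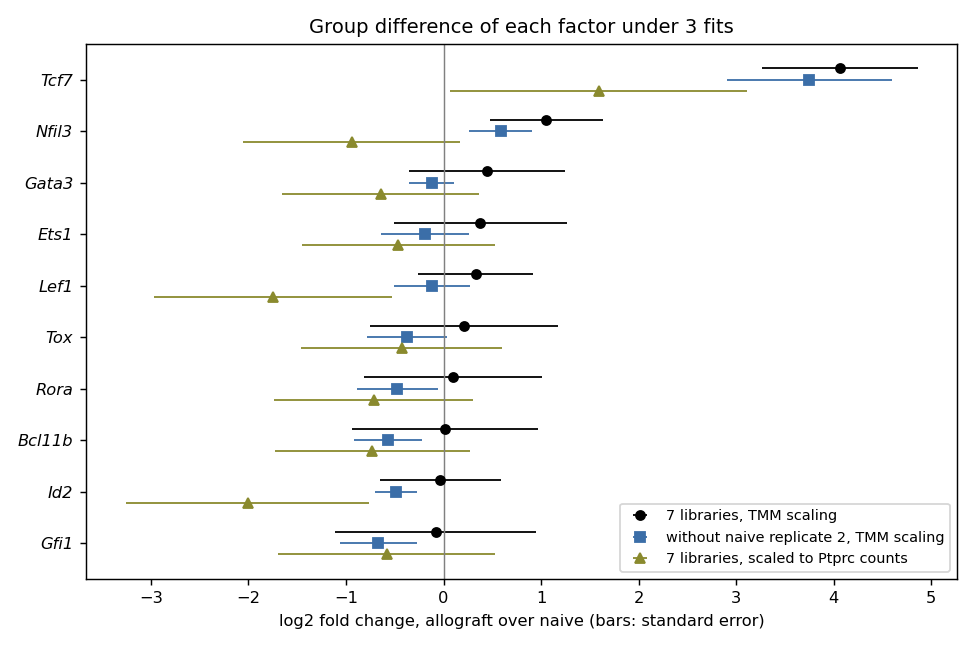
Log2 fold change (allograft over naive) of each factor with its standard error from the fit to 7 libraries (black), the fit without naive replicate 2 (blue) and the fit scaled to Ptprc counts (olive). Tcf7 is at 4.06, 3.75 and 1.59, and the other 9 lie between -2.01 and 1.06.

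The genes whose pattern over the 7 libraries lay closest to each factor were ranked by the root mean square difference of centred log2 CPM among 8035 genes. For Tcf7 they were the chemokine receptor gene Ccr7 (0.553) and Susd6 (0.711). Ccr7 had 5.37, 13.2 and 29.2 CPM in the naive and 269, 198, 247 and 200 CPM in the allograft libraries, and without naive replicate 2 it remained the closest gene to Tcf7 (0.338), while Susd6 was then at rank 9. The other 9 factors had closer companions, at 0.0952 to 0.226: Ttc39b and P2ry10 for Gata3, Dock10 and Cd84 for Rora, Git2 and Sub1 for Id2, and Arhgef6 and the chemokine receptor gene Ccr8 for Gfi1. Lmo4 and Stk10 were closest to Ets1, Cd27 and Rhoh to Bcl11b, Emp3 and Psen2 to Nfil3, Rhoh and Dennd1c to Tox, and Irf2 and H3f3b to Lef1. In each of these companions of the other 9 factors, naive replicate 2 was the lowest library, and without it none stayed the closest gene, with ranks from 5 (Irf2 for Lef1) to 168 (Rhoh for Bcl11b). Among the factors themselves, Ets1 and Rora were the most alike (0.208).

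Of 33 tested other lymphoid transcription factors, 0 passed the adjusted threshold by edgeR, 2 were higher and 1 lower at an unadjusted p under 0.05, a share near the 10.3% of all genes, and the median log2 fold change was 0.23. Without naive replicate 2, 0 passed and the median was 0.07. Every allograft exceeded every naive library in 5 of the 33 (Irf4, Stat5a, Stat6, Runx1 and Batf), beside 12.5% of all genes. Irf4, which acts in activated lymphocytes, had 3.17, 1.17 and 0 CPM in the naive and 45.5, 56.8, 41.5 and 55.8 CPM in the allograft libraries (log2 fold change 4.93, adjusted p = 0.306 by edgeR, and 0.21 without naive replicate 2). Like Tcf7, Irf4 passed with DESeq2 (adjusted p = 0.00593) and with limma on log2(FPKM + 0.1) and log2(FPKM + 1) (0.0223 and 0.0225). Stat5a, a transducer of IL-2 and IL-7 signals, had between 7.72 and 22.02 CPM in the naive and 36.5, 76.4, 67.3 and 63.8 CPM in the allograft libraries (1.79, adjusted p = 0.161, and 0.0894 without naive replicate 2), and it passed with DESeq2 (adjusted p = 0.000832). Stat6, the transducer of IL-4 signals, had 45.8, 24.8 and 68.5 CPM against 86.1 ± 7.63 (SD, n = 4). Stat6 differed by 0.75 on the log2 scale with 7 libraries and by 0.54 with naive replicate 2 left out. Id1, another inhibitor of E proteins, had 8.69, 145 and 24.9 CPM in the naive and 10.2 ± 2.25 CPM in the allograft libraries, and its high value was that of naive replicate 2. The log2 fold change of Id1 was -3.04 by edgeR (adjusted p = 0.341) and -3.39 by DESeq2 (adjusted p = 0.0274). Without that library it was -0.78 by edgeR (adjusted p = 0.504).

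Among 13 tested partners of TCF and LEF proteins, 0 passed by edgeR, 0 had an unadjusted p under 0.05, and 3 fold changes were positive (median -0.35, or -0.27 without naive replicate 2, where 0 passed). Ctnnb1, which encodes beta-catenin, had 59.9, 162 and 71.3 CPM in the naive and 68.2 ± 9.64 CPM in the allograft libraries. The corepressor gene Tle1 had 13.8, 10.1 and 33.9 CPM against 11.3 ± 3.31, the coactivator gene Bcl9 0.905, 8.77 and 21.5 CPM against 4.17 ± 1.11, and the Wnt co-receptor gene Lrp6 4.73, 47.6 and 64.0 CPM against 16.9 ± 8.57. In these 4 genes the groups overlapped.

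Of 18 ILC2 genes, 0 passed by edgeR and 0 had an unadjusted p under 0.05, with 14 positive fold changes (median 0.77, or 0.19 without naive replicate 2). The cytokine gene Il4 had 32.4, 0.901 and 44.0 CPM in the naive and 64.7 ± 10.1 CPM in the allograft libraries. The receptor gene Il18r1 had 8.37, 8.20 and 5.97 CPM against 20.3 ± 5.66. In both, the groups did not overlap. This was so for 4 of the 18 (with Areg and Il13), all higher in the allografts, beside 12.5% of all genes. With naive replicate 2 left out, 4 of the 18 were higher and 4 lower in every allograft. The shares of all genes were then 21.0% and 7.15%. Klrg1, an inhibitory receptor gene of mature ILC2s, had 818, 8.40 and 216 CPM against 813 ± 180, and Thy1 had 64.3, 2.11 and 85.0 CPM against 107 ± 30.4.

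Factors of other lineages were low. Of 9 tested, 0 passed by edgeR with 7 libraries. At an unadjusted p under 0.05, 2 were higher and 1 lower, beside 10.3% of all genes in either direction. Without naive replicate 2, 3 of 9 passed by edgeR, all higher in the allografts, beside 3.1% of all genes. They were Tbx21 (adjusted p = 0.0446), Spi1 (0.024) and Ebf1 (0.0433), each with 0 counts in naive replicates 1 and 3. The myeloid and B cell factor Spi1 had 0, 5.54 and 0 CPM in the naive and 12.9 to 22.7 CPM in the allograft libraries, and Ebf1, a B cell factor, 0, 18.0 and 0 against 2.41 to 4.50. Tbx21, which encodes the type 1 factor T-bet, had 0 counts in the 3 naive libraries and 7.95, 4.32, 1.74 and 3.13 CPM in the allografts, at least 67.2-fold higher on average against a floor of 3 counts per library (adjusted p = 0.144 by edgeR). Tbx21 passed with DESeq2 (adjusted p = 4.74e-08) and with limma on log2(FPKM + 0.1) (0.0444). The B cell factor Pax5 had 0 counts in the naive libraries and in allograft replicate 3, and from 1.64 to 4.19 CPM in the other 3 allografts, and passed with DESeq2 (adjusted p = 0.0302) but not with edgeR (0.341). Gata2, a mast cell and progenitor factor, had 1.26, 29.7 and 15.4 CPM against 3.42 ± 1.34, and Bcl6, the repressor that marks follicular helper T cells, 5.84, 2.18 and 33.2 CPM against 3.72 to 5.18.

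Tcf7 and Lef1 are also expressed in T cells and Tcf7 in NK cells, so markers of other cells are given beside them. The 14 T cell markers summed to 579, 51.3 and 1719 CPM in the naive and 1356 to 1569 CPM in the allograft libraries, which overlapped. Cd3e, a defining marker, was at most 1.24 CPM in any library, and Cd8a, Cd8b1 and Cd5 were at 0 in all naive libraries and at most 2.64 CPM in the allografts. Cd4 had 11.6 CPM in naive replicate 3 and at most 0.722 CPM elsewhere. Of the 14 markers 4 were higher in every allograft, where 12.5% of all genes were, and 4 without naive replicate 2, where 21.0% were. They were Cd3g (79.0, 6.00 and 124 CPM against 175 to 219), Trbc2 (182, 11.0 and 363 against 383 to 482), Trac and Cd247. Trac had 7.81, 5.06 and 10.6 CPM against 12.5 to 19.6. Cd247 had 0, 0.659 and 0 CPM against 4.36 to 13.3, and passed by edgeR without naive replicate 2 (adjusted p = 0.0384). NK cell markers (7 genes) summed to 174, 18.6 and 96.5 CPM against 238 to 334, without overlap for the sum and for 5 of the 7, and Gzma was the largest of them in each library. B cell markers (7 genes) summed to 117, 5.69 and 0 CPM against 90.8 to 129.9 CPM, with 6 of the 7 higher in every allograft and Ms4a1 at 0 CPM in the naive and 13.6 to 34.1 CPM in the allograft libraries. The NK and B cell counts of 5 and 6 were the same without naive replicate 2. Myeloid and dendritic cell markers (11 genes found) summed to 2.49, 311 and 467 CPM in the naive and 234 to 361 CPM in the allograft libraries, which overlapped. Of these 4 were higher in every allograft (Flt3, Zbtb46, S100a8 and S100a9), or 7 without naive replicate 2. The dendritic cell genes Flt3 and Zbtb46 were at most 5.06 CPM in the naive and 16.3 to 44.3 CPM in the allograft libraries. The macrophage genes were mixed, with none past the threshold by edgeR with 7 libraries. Csf1r (0, 26.2 and 11.0 CPM against 0.636 to 2.78), C1qb and Lyz2 had log2 fold changes of -3.53, -1.83 and -0.72. Those of C1qa and Adgre1 were -1.30 and -0.67, and that of Cd68 was 1.34. With naive replicate 2 left out, Cd68 and C1qa passed as higher by edgeR (adjusted p = 0.0252 and 0.0446), and Adgre1 was positive. Csf1r, C1qb and Lyz2 then had -1.995, -0.44 and -0.64, not past the threshold. Without naive replicate 2, 1 of 13 tested T cell markers, 3 of 7 B cell, 2 of 7 NK cell and 6 of 11 myeloid and dendritic cell markers passed by edgeR, all higher in the allografts, beside 3.1% of all genes. The part of these cells in the values of Tcf7 was not tested.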

How the data were processed

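RNA of ILC2s sorted from mouse hearts was measured in 7 libraries of amplified full-length cDNA, and groups and replicate numbers came from the titles. The authors deposited whole-number counts per gene and FPKM. The submitters' processing notes name FastQC 0.11.5, STAR 2.5.3a, StringTie 1.3.1c, DESeq2 1.16.1 and mm10, without their roles. The annotation and any use of strand are not given in the sources used here. Over 7340 genes with at least 100 counts in each library, FPKM over CPM was constant per gene up to a library factor of 0.981 to 1.05, so both tables carry the same measurement.

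Counts were tested with edgeR 4.0.16 in R 4.3.3: TMM, filterByExpr, quasi-likelihood fit to all 7 libraries, Benjamini-Hochberg adjustment over 17015 genes at 0.05. The standard error comes from the F value. The script was tested on simulated data. DESeq2 1.42.0 and limma 3.58.1 served as alternatives, the latter on log2(FPKM + 0.1) or log2(FPKM + 1). Single values were compared by exact permutation over 35 splits, with a smallest p of 0.0286. Replicates are pools of hearts, and amplified reads without molecular identifiers are not independent molecules, so that counting floors cover counting error only. The factors and lists were chosen with earlier results of these data known. Named were all 10 factors, the 4 genes of smallest p in each of 4 companion lists, and for each factor the 2 genes of closest pattern with a mean log2 CPM of at least 3 (prior count 2). Tle5 and Itgam matched no single row. A B cell marker of the list is not reported here. Runx1, Batf, Areg, Il13, Spi1, Ebf1 and the markers named singly were chosen after their values were seen. Coordinates are those of GENCODE M21 on GRCm38.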

Additional observations from a re-analysis of the deposited data

Results flagged for a closer look

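Among the 26 factors and companion genes examined in the 4 allografts, 2 had a single library far from the other 3, where chance gives about 1 in 20, or 1.3. Tcf7 stood at 21.5 CPM in allograft replicate 2, against 43.9 to 48.2 CPM elsewhere in the group. Gfi1 stood at 67.9 CPM in allograft replicate 3, against 49.5 to 51.9 CPM elsewhere. Without allograft replicate 2 the log2 fold change of Tcf7 was 4.27 (adjusted p = 0.244 by edgeR), and without allograft replicate 3 that of Gfi1 was -0.19 (adjusted p = 0.999).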

How the results depend on the processing

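The number of genes past the threshold was 6. It was 1012 with DESeq2, 201 and 76 with limma on log2(FPKM + 0.1) and log2(FPKM + 1), 1 with voom and sample quality weights, and 0 with Ptprc scaling, with or without naive replicate 2. Leaving out 1 library gave 0 to 560 genes, the count being 107 if naive replicate 1 was dropped, 560 for naive replicate 2, 7 for naive replicate 3 and 0 for each allograft. Of the 10 factors, 0 passed, with 1 at an unadjusted p under 0.05, and Tcf7 passed in 3 of 18 alternatives, giving 1 with DESeq2 and with both limma settings (range of its adjusted p 4.24e-06 to 1). Leaving out any 1 library, 0 factors passed.

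With a replicate block on the label number, 0 genes and 0 factors passed. The log2 fold change was then 0.30 for Id2 and 1.01 for Gfi1, which turned in sign, beside a median of 0.55 over all genes. The replicate numbers came from the titles and were not taken as pairs in the main test. The deviations of same-numbered libraries correlated at 0.017, -0.018 and 0.037, and those of differently numbered ones at -0.091 to 0.08. Deviations from the means of such small groups cannot decide whether the libraries were paired. Ptprc scaling turned Gata3 (-0.64), Rora (-0.71), Ets1 (-0.46), Bcl11b (-0.73), Nfil3 (-0.94), Tox (-0.43), Lef1 (-1.75), Stat5a (-1.14), Stat6 (-2.21) and Il18r1 (-2.58), beside a median of -3.15 over all genes. The same scaling without naive replicate 2, chosen after seeing the data, turned Gata3 (-0.49), Rora (-0.66), Ets1 (-0.31), Bcl11b (-0.93), Nfil3 (-0.088), Tox (-0.59), Lef1 (-0.50) and Klrg1 (-0.16). DESeq2, as a test or as size factors, gave -0.014 for Rora and -0.088 for Bcl11b, beside a median of -0.20 over all genes. No count filter gave -0.011 for Bcl11b, beside a median of 0.09. Limma on log2(FPKM + 0.1) and log2(FPKM + 1) gave 0.44 and 0.44 for Id2 and 1.41 and 0.88 for Gfi1. The medians over all genes were then 0.52 and 0.21. Voom gave 0.20 for Id2, 0.94 for Gfi1, 0.30 for Bcl9 and 0.20 for Lrp6, beside a median of 0.66 over all genes. Leaving out 1 library, the log2 fold change ran from -0.12 to 1.15 for Gata3, -0.47 to 1.45 for Rora, -0.49 to 0.49 for Id2, -0.67 to 1.12 for Gfi1, -0.19 to 1.86 for Ets1, -0.57 to 0.93 for Bcl11b, -0.38 to 1.52 for Tox, -0.11 to 0.92 for Lef1 and -1.19 to 0.003 for Ctnnb1. The cause of these changes was not tested. Tcf7 kept its sign in all 18 alternatives (1.59 to 5.17).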
